A study of Mus musculus with 18 samples.

Results

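The genes described here are the 39 listed proximal T cell receptor (TCR) signalling genes. They were taken by symbol from the deposited count table, and all 39 were found among its 23420 genes. They cover the TCR/CD3 complex and its coreceptors, the first kinases, the adaptors, the Ras and diacylglycerol branch and the negative regulators. After a filter on low counts 10630 genes were tested, and all 39 were among them. The list goes by known roles, and it was chosen with earlier results of these data known.

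RNA was measured by RNA-seq in sorted mouse regulatory T cells (Treg), the CD4 T cells that restrain other immune cells. The labels give the genotypes FCre x C1fl/fl, FCre x C1fl/+ and FCre x C1+/+, called fl/fl, fl/+ and +/+ below. Every group, the +/+ cells included, carries the element labelled FCre. The labels do not spell out FCre or its promoter. The genotype letters fl stand in general for an allele flanked by target sites of the Cre recombinase. Each genotype was sorted as effector (activated) and as resting Treg, with a batch number 1, 2 or 3. This makes 6 groups of 3 libraries: fl/fl effector, fl/+ effector, +/+ effector, fl/fl resting, fl/+ resting and +/+ resting. Neither age, sex nor the sorting gates are given in the sources used, and nothing says that libraries of a group came from separate mice, so p-values measure the spread between these samples, which may be technical.

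When a TCR meets its peptide on an antigen-presenting cell, the kinase Lck phosphorylates the tails of the CD3 chains, and Zap70 docks there and phosphorylates the scaffold Lat and the adaptor Lcp2 (SLP-76). Phospholipase C gamma 1 then joins the complex and makes diacylglycerol and inositol trisphosphate, which start the Ras, protein kinase C and calcium branches. Phosphatases, ubiquitin ligases, inhibitory adaptors and diacylglycerol kinases turn the signal down. Treg depend on TCR signals to become and remain effector cells.

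The 18 libraries held 1658073 to 5756903 expected counts, of which the 39 genes took 1.14 to 1.33%. Levels are in CPM (counts scaled to a common library size) after TMM scaling, and all library values are listed in the order of batch 1, 2 and 3. Foxp3, the factor that defines Treg, was at 211 to 479 CPM in every library. A list of 5 Treg markers (Foxp3, Il2ra, Ikzf2, Ctla4 and Cd4) summed to 1473 to 2033 CPM in fl/fl effector cells. This sum was 1842 to 2299 CPM in fl/+ and 2153 to 2698 CPM in +/+ effector cells, and 1321 to 1807 CPM in resting cells. Of 2 genes of the CD8 receptor, Cd8a was at no more than 3.17 CPM and Cd8b1 at 10.4 to 26.8 CPM. Of markers of other cells, 7 of CD8 T and NK cells summed to 43.7 to 65.9 CPM in 17 libraries and to 111 CPM in fl/fl effector replicate 1. A list of 8 B cell markers summed to 9.64 to 96.3 CPM, with the highest sum in +/+ resting replicate 3, and the part of these cells in the results was not tested. The state labels were reflected in the summed level of 4 resting T cell markers (Ccr7, Lef1, S1pr1 and Satb1). In effector cells this sum was 1260, 1796 and 1881 CPM in fl/fl, 958, 1237 and 899 CPM in fl/+, and 747, 676 and 1159 CPM in +/+. In resting cells it ran from 2000 to 2456 CPM over all 9 libraries. The sum of 5 effector markers (Icos, Klrg1, Prdm1, Tigit and Cd44) was 783, 303 and 358 CPM in fl/fl effector cells, 676, 606 and 738 CPM in fl/+ effector cells and 1164, 1022 and 774 CPM in +/+ effector cells, against 87.7 to 224 CPM in resting cells. All fl/fl effector libraries therefore held more resting marker RNA than any fl/+ or +/+ effector library. In bulk RNA, fewer cells of a type and less RNA per cell cannot be told apart.

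Per length of transcript, the highest levels of the list were those of the kinase Lck, 3 CD3 chains, the scaffold Lat and the diacylglycerol kinase Dgka. On the deposited FPKM scale (fragments scaled to transcript length and library size), Lck had the highest mean over the 18 libraries at 615 FPKM (554 to 704). Cd3g followed at 578 FPKM, Lat at 532, Cd3d at 489, Dgka at 452 and Cd3e at 448, and the library ranges of these neighbours overlapped. The zeta chain Cd247 was eighth at 303 FPKM. Of the 39 genes 18 had a mean above 100 FPKM, 17 lay between 10 and 100 FPKM and 4 lay under 10 FPKM. The lowest were the exchange factors Sos1 (1.69 FPKM, 1.10 to 2.17) and Vav3 (3.25 FPKM, 1.61 to 4.97). Some related pairs were unequal in level, with Lck at 615 and Fyn at 28.1 FPKM, Vav1 at 61.9 and Vav3 at 3.25 FPKM, and Ubash3a at 120 and Ubash3b at 13.4 FPKM. Others were closer, with Grb2 at 8.14 and Grap2 at 8.13 FPKM, and Cbl at 33.7 and Cblb at 27.7 FPKM. The summed CPM of the 39 genes was higher in every fl/fl resting library than in any other library, and differed little between the other groups. It was 12486 ± 141 CPM in fl/fl effector, 12481 ± 227 in fl/+ effector, 12580 ± 346 in +/+ effector, 13390 ± 294 in fl/fl resting, 12803 ± 139 in fl/+ resting and 12407 ± 477 in +/+ resting cells (SD, n = 3 each).

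**Figure D1:**
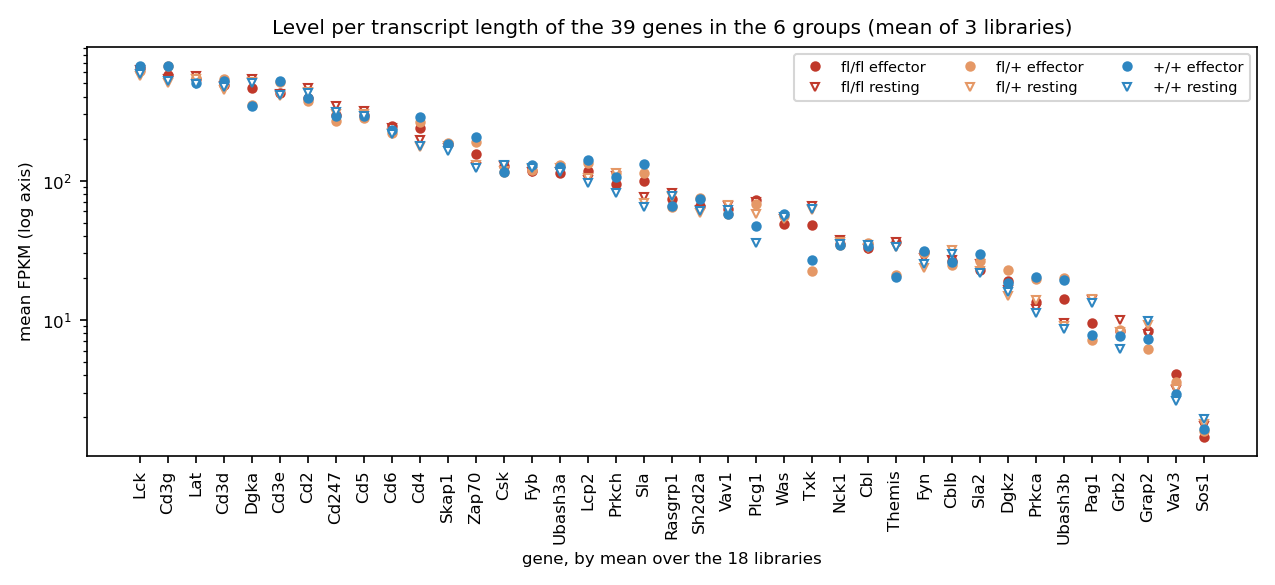
Mean FPKM of each of the 39 genes in the 6 groups (points, mean of 3 libraries; filled circles effector, open triangles resting), on a log axis, ordered by the mean over the 18 libraries. Levels run from Lck at 615 FPKM to Sos1 at 1.69 FPKM, and the 6 groups lie close together for most genes.

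Between effector and resting cells the list split into genes that rose and genes that fell. Calls were made with the edgeR quasi-likelihood F test, at a threshold of 0.05 on p-values adjusted by Benjamini-Hochberg over all 10630 genes. In fl/fl cells 2 of the 39 were called, both lower, where 6.34% of all tested genes were called (5.01% higher and 1.33% lower). In fl/+ cells 17 were called, 8 higher and 9 lower, where 16.3% of all genes were called (9.72% higher and 6.58% lower). In +/+ cells 12 were called, 6 higher and 6 lower, where 16% of all genes were called (9.49% higher and 6.5% lower). As shares of the list these counts are 5.13% in fl/fl, 43.6% in fl/+ and 30.8% in +/+ cells. Effector and resting libraries did not overlap for 21.7% of all tested genes in fl/fl, 34.1% in fl/+ and 32.3% in +/+ cells. Groups without overlap, given for single genes below, were therefore common in the whole table. The median log2 change of the list stayed near 0 at -0.08 in fl/fl, -0.04 in fl/+ and 0.02 in +/+ cells, beside -0.01 over all genes in each. All 12 genes called in +/+ were also called in fl/+ with the same sign. These contrasts share no library, but they come from the same fit with a shared estimate of the spread. The share of all genes called in +/+ that were also called in fl/+ is not given. The 12 were Cd4, Zap70, Lcp2, Prkca, Ubash3b and Sla, which rose, and Txk, Grap2, Themis, Rasgrp1, Dgka and Pag1, which fell. Zap70, Txk, Themis, Dgka, Ubash3b, Sla and Pag1 (7 genes) were called in both genotypes under all 13 alternatives counted for each call. Of the fits with a library left out, these 13 hold only those without a library of the contrast's own groups. The count of 17 in fl/+ was 10 without fl/+ resting replicate 1, 11 without fl/+ resting replicate 3, 11 without fl/+ effector replicate 1 and 9 without fl/+ effector replicate 3. Of the 39 genes 21 were called in no contrast at all, between states or between genotypes, and their changes between states lay between -0.35 and 0.36 in +/+ cells.

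**Figure D2:**
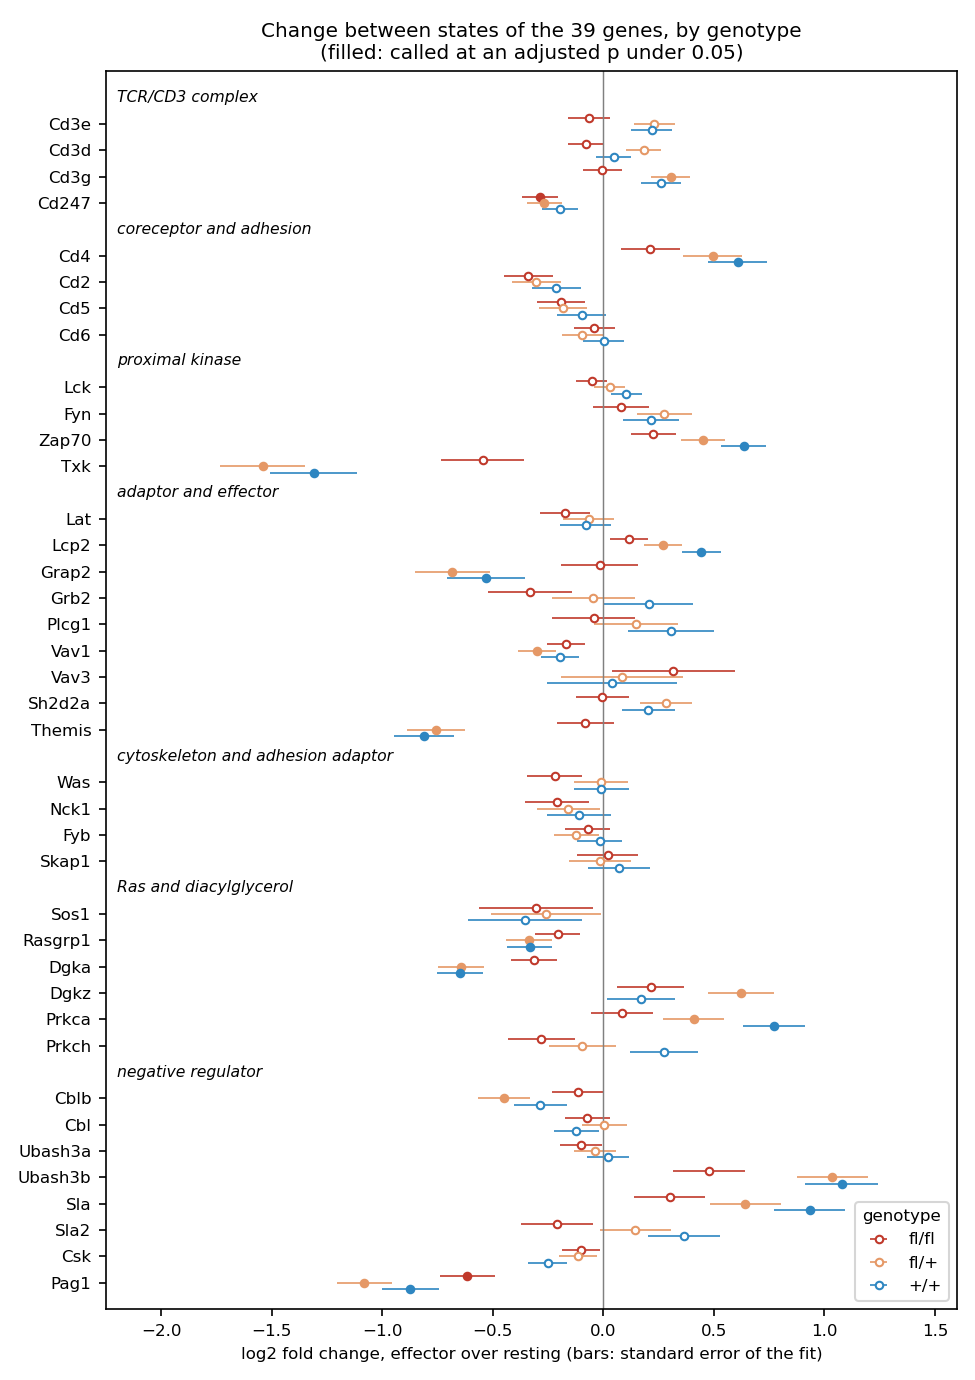
The log2 fold change of each gene, effector over resting, in fl/fl, fl/+ and +/+ cells (points; bars are the standard error of the fit, filled points were called at an adjusted p under 0.05), grouped by role. For Txk and Themis the fl/fl points lie at -0.54 and -0.08, and the +/+ points at -1.31 and -0.81.

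Promoters are shown for the 5 genes that were called between fl/fl and +/+ cells below, because Themis, Txk and Dgka moved one way there and Prkca the other, and Plcg1 differed in resting cells. Each window holds the 250 bases before the RefSeq start on the gene's strand, 5′ to 3′, from RefSeq with build GRCm38.p6, in which 31 of the 39 genes had an entry. Themis and Txk had 2 entries each and Dgka 4, and the entry nearest the start of the principal GENCODE transcript was used. The windows of Txk and Dgka lie inside the annotated spans of those genes (72695978 to 72752777 and 128720134 to 128744855). Those of Prkca and Plcg1 overlap the gene spans in part, as these end at 108343928 (Prkca, minus strand) and start at 160731300 (Plcg1, plus strand). The values below describe the chosen start alone. Capitals mark a match on either strand to one of 5 short motifs: CCGGAA (ETS), TGTGGT (RUNX), CTTTGA (TCF/LEF), TGANTCA (AP-1) and GGGNNNTTCC (NF-kB). The windows are Themis chr10:28668110-28668359 (plus strand), Txk chr5:72736603-72736852 (minus strand), Dgka chr10:128744077-128744326 (minus strand), Prkca chr11:108343889-108344138 (minus strand) and Plcg1 chr2:160731060-160731309 (plus strand).
Themis: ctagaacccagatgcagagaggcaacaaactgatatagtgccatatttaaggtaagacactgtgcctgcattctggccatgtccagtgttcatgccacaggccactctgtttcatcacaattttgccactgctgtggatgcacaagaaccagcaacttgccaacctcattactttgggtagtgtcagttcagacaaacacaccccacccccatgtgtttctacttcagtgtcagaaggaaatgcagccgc
Txk: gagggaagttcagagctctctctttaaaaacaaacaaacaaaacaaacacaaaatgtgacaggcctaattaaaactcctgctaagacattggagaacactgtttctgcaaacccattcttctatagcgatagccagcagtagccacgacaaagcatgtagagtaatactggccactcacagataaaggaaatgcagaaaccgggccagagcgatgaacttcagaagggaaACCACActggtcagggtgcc
Dgka: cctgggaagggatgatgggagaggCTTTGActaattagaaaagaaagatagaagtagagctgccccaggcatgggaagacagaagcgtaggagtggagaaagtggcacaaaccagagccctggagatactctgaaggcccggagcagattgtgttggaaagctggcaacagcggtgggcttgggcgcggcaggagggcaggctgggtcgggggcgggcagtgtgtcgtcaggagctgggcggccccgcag
Prkca: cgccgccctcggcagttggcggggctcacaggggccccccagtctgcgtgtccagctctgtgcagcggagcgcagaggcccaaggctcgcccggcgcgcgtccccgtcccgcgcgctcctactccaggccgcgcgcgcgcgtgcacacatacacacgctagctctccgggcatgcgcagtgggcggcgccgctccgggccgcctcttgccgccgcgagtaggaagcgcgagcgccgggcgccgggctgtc
Plcg1: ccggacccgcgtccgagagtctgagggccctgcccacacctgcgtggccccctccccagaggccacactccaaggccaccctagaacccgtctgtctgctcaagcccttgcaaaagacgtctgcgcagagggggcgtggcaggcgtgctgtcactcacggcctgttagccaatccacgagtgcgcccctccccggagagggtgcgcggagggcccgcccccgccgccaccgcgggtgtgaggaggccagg
The windows differed in base composition. GC content was 48% for Themis, 44.4% for Txk and 60% for Dgka, and 76.8% for Prkca and 71.2% for Plcg1, with a median of 52.4% over all windows in the table. CG dinucleotides numbered 1, 4 and 10 in Themis, Txk and Dgka, 39 in Prkca and 21 in Plcg1. The capitals in Txk are a RUNX match on the opposite strand, 20 bases before the start, and those in Dgka a TCF/LEF match 226 bases before the start. Over the 31 genes, ETS letters were in 3 windows, RUNX in 4 and TCF/LEF in 5, where 12%, 14% and 13.8% of all 32851 windows hold them. AP-1 and NF-kB letters were in 0 of the 31, where 6.75% and 4.65% of all windows hold them. A match is a description of letters only.

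Of the CD3 chains Cd3g was called higher in fl/+ effector cells and Cd247 lower in fl/fl and fl/+ effector cells, all by small amounts. Cd3g, a signalling chain of the complex, had 616, 533 and 645 CPM in fl/+ effector cells, against 493, 501 and 459 CPM in fl/+ resting cells (log2 change 0.30, SE 0.09, edgeR adjusted p = 0.0227). Neither the fl/+ nor the +/+ groups overlapped, and Cd3g was called higher in fl/+. In +/+ cells Cd3g changed by 0.26 (edgeR adjusted p = 0.0529, and 0.0302 with the replicate block), and in fl/fl cells by 0.00 (adjusted p = 0.988). Cd247, the zeta chain that carries most of the phosphorylation motifs, went the other way. It had 433, 484 and 473 CPM in fl/fl effector cells, against 555, 538 and 599.8 CPM in fl/fl resting cells (log2 change -0.29, SE 0.08, edgeR adjusted p = 0.0362). It also had 417, 432 and 401 CPM in fl/+ effector cells, against 542, 490.0 and 472 CPM in fl/+ resting cells (log2 change -0.27, SE 0.08, edgeR adjusted p = 0.026). Every effector library lay below every resting library in both genotypes. In +/+ cells Cd247 changed by -0.20, also without overlap, and was not called (adjusted p = 0.106). The fl/fl call of Cd247 was lost in 9 of its 13 alternatives and the fl/+ call in 8. Cd3e, which pairs with Cd3g and with Cd3d, and Cd3d itself were called in no contrast, with changes between states of -0.06 and -0.08 in fl/fl, 0.23 and 0.18 in fl/+ and 0.22 and 0.05 in +/+ cells. Cd3g, Cd3d and Cd3e lie side by side on chromosome 9, with 1354 bases between Cd3g and Cd3d and 11400 between Cd3d and Cd3e. Exons of Cd247 share 3007 bases with Pou2f1 on the opposite strand. The sources used here do not give the strand setting of the counts, so reads on those bases cannot be told apart. Pou2f1 itself was called lower in +/+ effector cells (log2 change -0.56, edgeR adjusted p = 0.00529). It was not called in fl/fl (-0.31, adjusted p = 0.195) or in fl/+ cells (-0.22, adjusted p = 0.267).

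Cd4, the coreceptor that brings Lck to the receptor, rose with the effector state. It had 879, 622 and 809 CPM in fl/+ effector cells, against 558, 512 and 569.6 CPM in fl/+ resting cells (log2 change 0.49, SE 0.13, edgeR adjusted p = 0.0129). The +/+ values were 801, 833 and 859 CPM in +/+ effector cells, against 502, 507 and 627 CPM in +/+ resting cells (log2 change 0.61, SE 0.13, edgeR adjusted p = 0.00319). Groups did not overlap in either genotype. The fl/fl values of Cd4 were 799.6, 592 and 714 CPM in effector and 707, 532 and 578 CPM in resting cells, which overlapped (log2 change 0.21, SE 0.13, edgeR adjusted p = 0.417). The adhesion receptor Cd2 went the other way in each genotype without a call, by -0.34 in fl/fl (adjusted p = 0.0793), -0.30 in fl/+ (adjusted p = 0.0688) and -0.21 in +/+ cells (adjusted p = 0.22). With the replicate block Cd2 was called lower in fl/fl (adjusted p = 0.0181) and in fl/+ cells (adjusted p = 0.0144). Cd5 and Cd6, related receptors that restrain TCR signals, changed by -0.10 and 0.00 in +/+ cells, with no call in any contrast.

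Among the kinases Zap70 was higher and Txk lower in effector than in resting cells of the fl/+ and +/+ genotypes. Zap70, which docks on phosphorylated CD3 chains, had 379, 386 and 391 CPM in fl/+ effector cells, against 266, 301 and 279 CPM in fl/+ resting cells (log2 change 0.45, SE 0.10, edgeR adjusted p = 0.00383). In the +/+ genotype it had 395, 467 and 372 CPM in +/+ effector cells, against 263, 271 and 259.8 CPM in +/+ resting cells (log2 change 0.64, SE 0.10, edgeR adjusted p = 0.000224). All effector values stood above all resting values in both. For fl/fl, Zap70 had 336, 293 and 324 CPM in effector and 248, 316 and 252 CPM in resting cells, and the groups overlapped (log2 change 0.23, SE 0.10, edgeR adjusted p = 0.226). Txk, a Tec family kinase that acts on phospholipase C gamma, showed the largest fall of the list. It had 45.5, 60.8 and 36.5 CPM in fl/+ effector cells, against 141, 140.5 and 133 CPM in fl/+ resting cells (log2 change -1.54, SE 0.19, edgeR adjusted p = 3.15e-05). The +/+ cells had 52.8, 43.3 and 70.96 CPM as effector and 121, 119 and 178 CPM as resting cells (log2 change -1.31, SE 0.20, edgeR adjusted p = 0.000118). The highest +/+ effector library was still well under the lowest resting one. Txk in fl/fl had 81.9, 105 and 119.7 CPM in effector and 137, 143 and 161 CPM in resting cells, which did not overlap, but the change was not called (log2 change -0.54, SE 0.19, edgeR adjusted p = 0.0953). Lck changed by -0.05 in fl/fl, 0.03 in fl/+ and 0.10 in +/+ cells, and the related kinase Fyn by 0.08, 0.28 and 0.21, all without a call.

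The adaptors around Lat also split. Lcp2, the platform that holds phospholipase C gamma and Vav1, had 435, 399 and 445 CPM in fl/+ effector cells, against 369, 353 and 337 CPM in fl/+ resting cells (log2 change 0.27, SE 0.09, edgeR adjusted p = 0.0355). Its +/+ values were 428, 458 and 430.2 CPM in +/+ effector cells, against 300.4, 359 and 309 CPM in +/+ resting cells (log2 change 0.44, SE 0.09, edgeR adjusted p = 0.00133). Lcp2 was higher in every effector library of these genotypes than in any resting library of the same genotype. Lcp2 changed in fl/fl cells by 0.12 (adjusted p = 0.518), and its fl/+ call held in 6 of 13 alternatives. Grap2 (Gads), which bridges Lat and Lcp2, had 17.05, 19.2 and 14.8 CPM in fl/+ effector cells, against 29.5, 26.4 and 25.4 CPM in fl/+ resting cells (log2 change -0.68, SE 0.17, edgeR adjusted p = 0.00852). In +/+ cells the Grap2 values were 19.6, 16.9 and 22.5 CPM in +/+ effector cells, against 24.6, 32.8 and 29.2 CPM in +/+ resting cells (log2 change -0.53, SE 0.18, edgeR adjusted p = 0.0446). Grap2 fell in both genotypes without overlap, and its +/+ call held in 3 of 13 alternatives. Its change in fl/fl cells was -0.02 (adjusted p = 0.976). Lat changed by -0.08 and the adaptor Grb2, which brings Sos1 to Lat, by 0.21 in +/+ cells, with no call in any contrast.

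Themis, an adaptor that binds Grb2 and sets signal strength in developing thymocytes, fell in effector cells of the genotypes with a + allele. It had 90.9, 87.8 and 60.5 CPM in fl/+ effector cells, against 134, 152 and 119 CPM in fl/+ resting cells (log2 change -0.76, SE 0.13, edgeR adjusted p = 0.000497). In +/+ cells it had 71.2, 72.9 and 84.6 CPM in +/+ effector cells, against 129.6, 131 and 141 CPM in +/+ resting cells (log2 change -0.81, SE 0.13, edgeR adjusted p = 0.000314). No effector library of either genotype reached the lowest resting one. Themis in the fl/fl genotype had 139, 146 and 130.0 CPM in effector and 155, 151 and 134 CPM in resting cells, which overlapped (log2 change -0.08, SE 0.13, edgeR adjusted p = 0.801). Vav1, an exchange factor for Rac, had 231, 219 and 235 CPM in fl/+ effector cells, against 278, 284 and 283 CPM in fl/+ resting cells (log2 change -0.30, SE 0.09, edgeR adjusted p = 0.0195). All effector libraries lay below all resting ones in fl/+ and also in +/+ cells. The Vav1 changes of -0.17 in fl/fl and -0.20 in +/+ cells were not called. The fl/+ call of Vav1 held in 5 of 13 alternatives. Sh2d2a (TSAd), an adaptor that binds Lck, changed by 0.28 in fl/+ cells (adjusted p = 0.114, and 0.0381 with the replicate block). Plcg1 and Vav3 were not called between states, with 0.31 and 0.04 in +/+ cells, although with the replicate block Plcg1 was called higher in +/+ effector cells (0.33, adjusted p = 0.0331). The adaptors to the cytoskeleton and to integrins were called in no contrast: the actin regulators Was and Nck1 changed by -0.01 and -0.11, and Fyb (ADAP) and Skap1, which link the TCR to integrins, by -0.02 and 0.07 in +/+ cells.

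In the Ras and diacylglycerol branch Dgka and Rasgrp1 were lower and Prkca higher in effector than in resting cells of the fl/+ and +/+ genotypes. Dgka, the kinase that removes diacylglycerol and the gene of this branch with the highest FPKM, had 937, 985 and 864 CPM in fl/+ effector cells, against 1556, 1403 and 1399 CPM in fl/+ resting cells (log2 change -0.65, SE 0.10, edgeR adjusted p = 0.000236). The +/+ values were 815, 825 and 1062 CPM in +/+ effector cells, against 1341, 1392 and 1499 CPM in +/+ resting cells (log2 change -0.65, SE 0.10, edgeR adjusted p = 0.000224). Dgka was lower in all effector libraries of these genotypes. The fl/fl cells had 1071, 1339.6 and 1256 CPM in effector and 1539, 1439 and 1578 CPM in resting cells, which did not overlap and were not called (log2 change -0.31, SE 0.10, edgeR adjusted p = 0.0789). Its relative Dgkz had 91.03, 73.3 and 92.6 CPM in fl/+ effector cells, against 51.3, 53.9 and 62.9 CPM in fl/+ resting cells and rose there (log2 change 0.62, SE 0.15, edgeR adjusted p = 0.00659), while its changes of 0.21 in fl/fl and 0.17 in +/+ cells were not called. Rasgrp1, the diacylglycerol-sensing activator of Ras, had 335, 315 and 295 CPM in fl/+ effector cells, against 409, 389 and 396 CPM in fl/+ resting cells (log2 change -0.34, SE 0.10, edgeR adjusted p = 0.0281). It had 313, 288 and 347 CPM in +/+ effector cells, against 357, 393 and 446 CPM in +/+ resting cells (log2 change -0.33, SE 0.10, edgeR adjusted p = 0.0309). Both genotypes showed lower values in all effector libraries, each call held in 6 of 13 alternatives, and the change in fl/fl cells was -0.21 (adjusted p = 0.285). Prkca, a protein kinase C activated by diacylglycerol and calcium, had 169, 159 and 156 CPM in +/+ effector cells, against 76.4, 104 and 105 CPM in +/+ resting cells (log2 change 0.77, SE 0.14, edgeR adjusted p = 0.000688). In fl/+ cells it had 179.9, 122 and 171 CPM in effector and 119, 130.3 and 107 CPM in resting cells, which overlapped through batch 2 (log2 change 0.41, SE 0.14, edgeR adjusted p = 0.0466). The fl/+ call of Prkca held in 6 of 13 alternatives, and the fl/fl change was 0.09 (adjusted p = 0.808). The related Prkch and the Ras exchange factor Sos1 were not called between states, with 0.27 and -0.35 in +/+ cells.

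The negative regulators moved in both directions. Ubash3b (Sts-1), a phosphatase that acts on Zap70, showed the largest rise of the list. It had 53.96, 61.9 and 66.3 CPM in fl/+ effector cells, against 28.2, 30.7 and 30.1 CPM in fl/+ resting cells (log2 change 1.04, SE 0.16, edgeR adjusted p = 0.000177). In +/+ cells it had 66.5, 57.1 and 51.7 CPM in +/+ effector cells, against 28.2, 28.8 and 26.5 CPM in +/+ resting cells (log2 change 1.08, SE 0.16, edgeR adjusted p = 0.000147). No resting library of these genotypes came near its effector libraries. In fl/fl cells it had 48.2, 40.3 and 41.7 CPM in effector and 35.5, 21.6 and 36.3 CPM in resting cells, without overlap and without a call (log2 change 0.48, SE 0.16, edgeR adjusted p = 0.0945). Its relative Ubash3a changed by -0.10, -0.04 and 0.02 in fl/fl, fl/+ and +/+ cells. Sla (SLAP), an adaptor that sends TCR chains for degradation, had 307, 265 and 269 CPM in fl/+ effector cells, against 167, 177 and 196 CPM in fl/+ resting cells (log2 change 0.64, SE 0.16, edgeR adjusted p = 0.00819). It had 362, 345 and 261 CPM in +/+ effector cells, against 166, 177 and 165 CPM in +/+ resting cells (log2 change 0.93, SE 0.16, edgeR adjusted p = 0.000469). Sla was higher in all effector libraries of these genotypes, and its fl/fl change was 0.30 (adjusted p = 0.332). The related Sla2 changed by 0.36 in +/+ cells (adjusted p = 0.146).

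Pag1 (Cbp), the membrane adaptor that holds the inhibitory kinase Csk near Lck, was the gene of the list called between states in all 3 genotypes. It had 74.4, 87.9 and 65.9 CPM in fl/fl effector cells, against 116, 116 and 119.5 CPM in fl/fl resting cells (log2 change -0.61, SE 0.12, edgeR adjusted p = 0.00504). The fl/+ values were 52.3, 68.4 and 49.6 CPM in fl/+ effector cells, against 124, 122 and 113 CPM in fl/+ resting cells (log2 change -1.08, SE 0.12, edgeR adjusted p = 1.74e-05), and the +/+ values 64.2, 59.7 and 59.1 CPM in +/+ effector cells, against 104, 126 and 107 CPM in +/+ resting cells (log2 change -0.87, SE 0.13, edgeR adjusted p = 9.84e-05). Every effector library lay below every resting library of the study. Csk itself changed by -0.10, -0.11 and -0.25 in fl/fl, fl/+ and +/+ cells, and in +/+ cells its adjusted p was 0.0545, and 0.0459 with the replicate block. The ubiquitin ligase Cblb had 171, 140.1 and 142 CPM in fl/+ effector cells, against 208, 184 and 227 CPM in fl/+ resting cells and fell there (log2 change -0.45, SE 0.12, edgeR adjusted p = 0.0116). This call held in 8 of 13 alternatives. The related Cbl changed by 0.00 in fl/+ cells and was called in no contrast.

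The changes between states were smaller in fl/fl cells than in +/+ cells for most of these genes, but the difference itself was not called for any of them. Of the 17 genes called in fl/+ cells, 15 (88.2%) had a smaller change in size in fl/fl than in +/+ cells, beside 74.1% of the 1732 genes called in fl/+ over the whole table. The median size of the log2 change over the 17 was 0.21 in fl/fl and 0.61 in +/+ cells. Over all 1732 genes it was 0.50 in fl/fl and 0.77 in +/+ cells. In the test of the difference (fl/fl change less +/+ change), 0 of the 39 genes were called and 0% of all genes, with 13 of the 39 (33.3%) at an unadjusted p under 0.05, beside 8.97% of all genes. Themis came nearest with 0.73 (SE 0.19, edgeR adjusted p = 0.32), and then Prkca with -0.69 (SE 0.20, adjusted p = 0.351). Against the fl/+ change, 0 of the 39 were called and 0.00941% of all genes (1 gene), with 9 of the 39 (23.1%) at an unadjusted p under 0.05, beside 5.89% of all genes, led by Txk at 1.00 (adjusted p = 0.541) and Themis at 0.67 (adjusted p = 0.541). For fl/+ less +/+, 0 of the 39 and 0.0188% of all genes were called, with 1 of the 39 (2.56%) at an unadjusted p under 0.05, beside 3.23% of all genes. DESeq2 and limma on FPKM also called 0 of the 39 in each of these tests. With no filter on low counts edgeR called 5 for fl/fl less +/+ (Themis, Sla, Prkca, Prkch and Txk) and 2 for fl/fl less fl/+ (Themis and Txk).

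Within effector cells, fl/fl and +/+ differed in 4 of the 39 genes, 3 higher and 1 lower, where 2.81% of all genes were called (1.17% higher and 1.65% lower). Themis rose. It had 139, 146 and 130.0 CPM in fl/fl effector cells, against 71.2, 72.9 and 84.6 CPM in +/+ effector cells (log2 change 0.86, SE 0.14, edgeR adjusted p = 0.00249). Every fl/fl library lay above every +/+ library, and in resting cells the same genotypes overlapped, with 155, 151 and 134 CPM in fl/fl and 129.6, 131 and 141 CPM in +/+ (log2 change 0.13, SE 0.13, edgeR adjusted p = 0.896). Txk had 81.9, 105 and 119.7 CPM in fl/fl effector cells, against 52.8, 43.3 and 70.96 CPM in +/+ effector cells (log2 change 0.85, SE 0.20, edgeR adjusted p = 0.0277). Dgka had 1071, 1339.6 and 1256 CPM in fl/fl effector cells, against 815, 825 and 1062 CPM in +/+ effector cells (log2 change 0.44, SE 0.10, edgeR adjusted p = 0.0289). Neither overlapped between the groups. Prkca, the one that fell, had 116, 106 and 107 CPM in fl/fl effector cells, against 169, 159 and 156 CPM in +/+ effector cells (log2 change -0.55, SE 0.14, edgeR adjusted p = 0.0371), with a narrow spread in both groups. In each of these genes the fl/fl effector level lay between the +/+ effector and the +/+ resting mean, except Themis, whose fl/fl effector mean of 138 CPM stood above the +/+ resting mean of 134 CPM. The summed resting T cell markers given above were higher in the same fl/fl effector libraries, and their part in these differences was not tested.

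**Figure D3:**
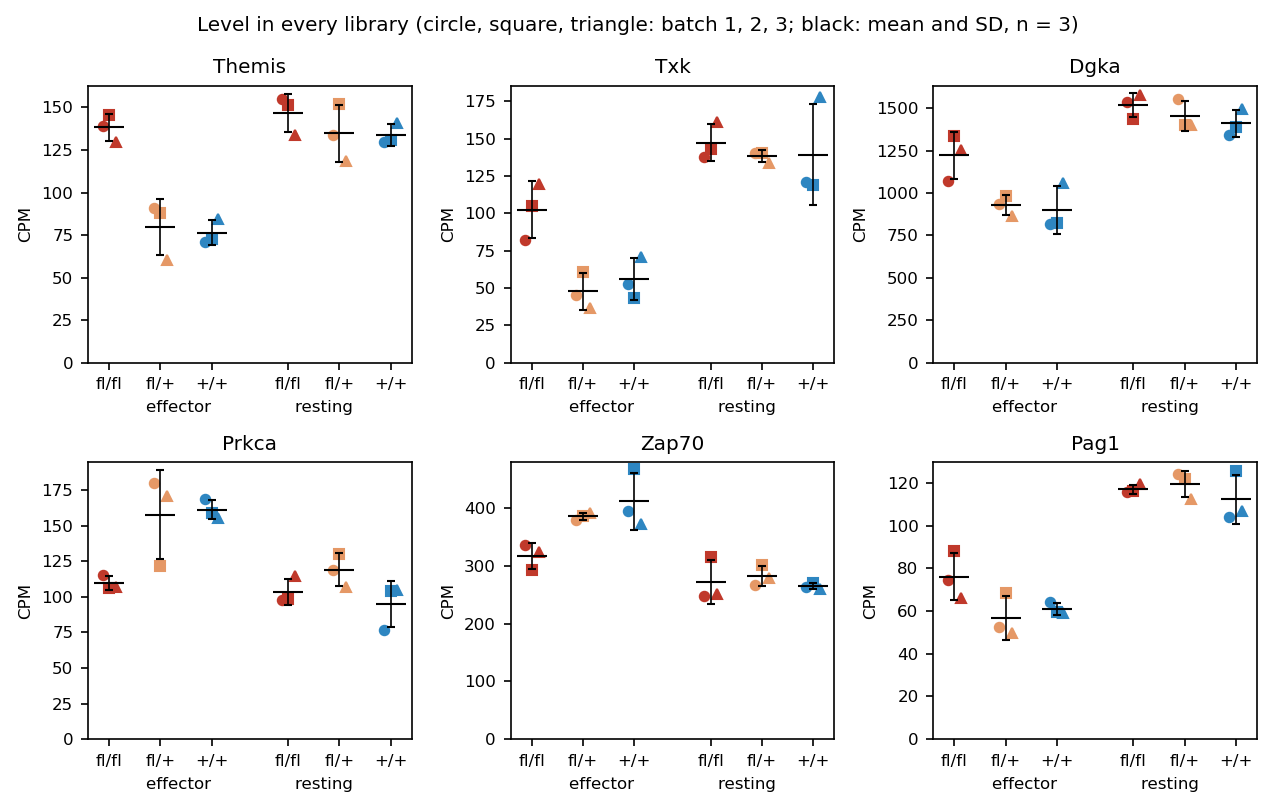
CPM of Themis, Txk, Dgka, Prkca, Zap70 and Pag1 in every library (circle, square and triangle for batch 1, 2 and 3; black bars are the mean and SD of 3 libraries). The fl/fl effector libraries of Themis lie at 130.0 to 146 CPM and those of +/+ at 71.2 to 84.6 CPM; the fl/fl effector libraries of Prkca lie at 106 to 116 CPM, under all +/+ effector libraries.

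Since the groups did not overlap for these 4 genes, the direction within each batch number was fixed, and the ratios give its size alone. Of all tested genes 20.5% did not overlap between fl/fl and +/+ effector cells. The ratio of fl/fl to +/+ effector cells in batch 1, 2 and 3 was 1.95, 2.00 and 1.54 for Themis, 1.55, 2.42 and 1.69 for Txk, 1.31, 1.62 and 1.18 for Dgka, and 0.684, 0.669 and 0.688 for Prkca. Against fl/+ effector cells 2 of the 39 genes were called, where 0.677% of all genes were. These were Themis (139, 146 and 130.0 CPM in fl/fl effector cells, against 90.9, 87.8 and 60.5 CPM in fl/+ effector cells; log2 change 0.79, SE 0.13, edgeR adjusted p = 0.0147) and Txk (81.9, 105 and 119.7 CPM in fl/fl effector cells, against 45.5, 60.8 and 36.5 CPM in fl/+ effector cells; log2 change 1.09, SE 0.19, edgeR adjusted p = 0.0248). Both were higher in all fl/fl libraries, in a comparison where 16.3% of all tested genes did not overlap. Dgka and Prkca were not called there, with 0.39 (adjusted p = 0.0834) and -0.52 (adjusted p = 0.0858). This comparison and the one with +/+ share the fl/fl libraries. Zap70 was the nearest gene outside the call against +/+, with 336, 293 and 324 CPM in fl/fl effector cells, against 395, 467 and 372 CPM in +/+ effector cells and no overlap (log2 change -0.37, SE 0.10, edgeR adjusted p = 0.0515). It was called lower with the replicate block (adjusted p = 0.0276). Between fl/+ and +/+ effector cells 0 of the 39 genes were called, where 0.00941% of all genes were, and 0 in DESeq2. At an unadjusted p under 0.05 there were 2 (5.13%, beside 5.47% of all genes). With the contrast groups alone in the fit the calls of Txk (adjusted p = 0.0539) and Dgka (adjusted p = 0.116) against +/+ were lost, and with limma on log2(FPKM + 1) and log2(FPKM + 0.1) that of Prkca (adjusted p = 0.0574 and 0.0734). Themis was called in all of these. Of the 4 calls against +/+, 1 (Themis) was kept without +/+ effector replicate 1 or 2 and without fl/fl effector replicate 2 or 3. Without fl/fl effector replicate 1, 7 calls were made, and the share of all genes in these fits is not given. That library had the most effector and the least resting marker RNA of its group. Both calls against fl/+ were lost without fl/fl effector replicate 2 or fl/+ effector replicate 3, and the Txk call without fl/+ effector replicate 1 or fl/fl effector replicate 3.

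In resting cells Plcg1, the phospholipase C that links the receptor to calcium and diacylglycerol, was the 1 gene of the 39 called between fl/fl and +/+, where 0.696% of all genes were called. It had 258, 314 and 374 CPM in fl/fl resting cells, against 111, 169 and 202 CPM in +/+ resting cells, and the groups did not overlap (log2 change 0.98, SE 0.19, edgeR adjusted p = 0.0181). No overlap between these groups was seen for 11.6% of all tested genes. The fl/+ resting cells had 199, 277 and 297 CPM, and against +/+ they were not called (log2 change 0.68, SE 0.19, edgeR adjusted p = 0.294). In effector cells Plcg1 had 273, 290.2 and 359 CPM in fl/fl, 263, 264 and 325 CPM in fl/+ and 168, 206 and 219.9 CPM in +/+ cells. The fl/fl difference from +/+ was not called there (log2 change 0.63, SE 0.19, edgeR adjusted p = 0.0759).

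Batch and genotype both moved with Plcg1. Batch 1 was the lowest and batch 3 the highest library in all 6 groups. Within every batch and state, 6 cases in all, the order was fl/fl above fl/+ above +/+. Much of this order was fixed, since fl/fl did not overlap +/+ in either state, nor fl/+ the +/+ effector cells. Free to vary were the order of fl/fl and fl/+, and that of fl/+ and +/+ in resting cells. The ratio of fl/fl to +/+ cells ran from 1.41 to 2.33 over these 6 cases. With the batch number as a replicate block Plcg1 was called in fl/fl against +/+ effector cells (0.64, adjusted p = 0.00133), in fl/+ against +/+ effector cells (0.53, adjusted p = 0.0234) and in fl/+ against +/+ resting cells (0.70, adjusted p = 0.00234), where it had not been called without the block. Without the block the call in resting cells was lost on leaving out +/+ resting replicate 1 or 2, or fl/fl resting replicate 2 or 3. Exons of Plcg1 share 379 bases with Zhx3 on the opposite strand, and Zhx3 was at 5.71 ± 2.47 CPM in fl/fl resting and 5.59 ± 2.45 CPM in +/+ resting cells (SD, n = 3 each).

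**Figure D4:**
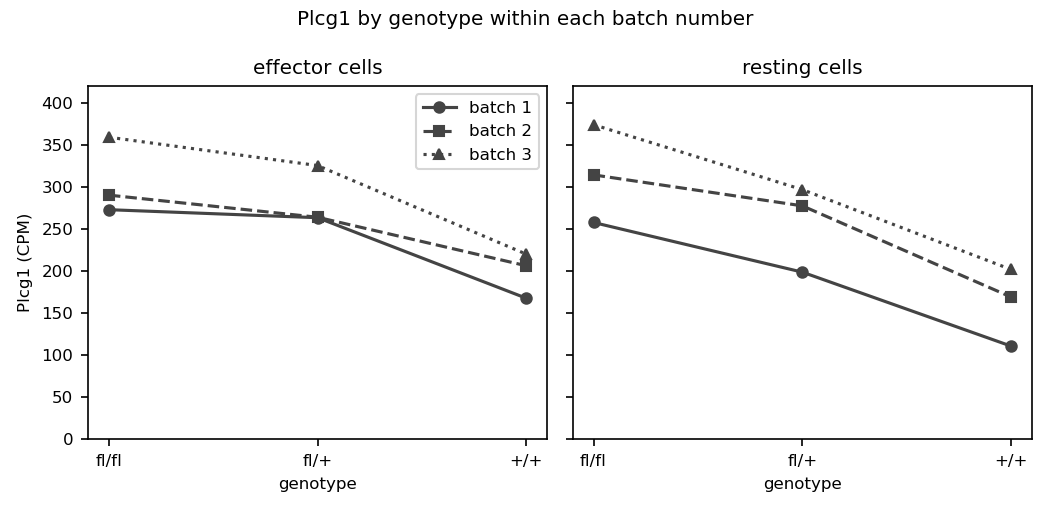
Plcg1 in CPM by genotype in effector cells (left) and resting cells (right), with a line for each batch number. Every line is highest in fl/fl and lowest in +/+ cells, with 374 CPM in fl/fl and 202 CPM in +/+ resting cells of batch 3.

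Other genes in resting cells showed no call. Between fl/fl and fl/+ resting cells 0 of the 39 were called (0.0282% of all genes), with 1 at an unadjusted p under 0.05 (2.56%, beside 4.83% of all genes). Between fl/+ and +/+ resting cells 0 of the 39 were called (0.0847% of all genes), with 3 at an unadjusted p under 0.05 (7.69%, beside 6.29% of all genes). DESeq2 called 0 in both comparisons. The replicate block gave 2 calls in fl/+ against +/+ resting cells, Plcg1 as above and Prkch, a protein kinase C of the same branch (0.50, adjusted p = 0.033, against 0.391 without the block). Prkch had 320.0, 361 and 397 CPM in fl/fl resting, 326, 384 and 426 CPM in fl/+ resting and 197, 313 and 302 CPM in +/+ resting cells. Its +/+ batch 1 library was the lowest of all 18. Grb2 had 19.1, 33.6 and 25.7 CPM in fl/fl resting cells, against 18.01, 15.8 and 14.6 CPM in +/+ resting cells, which did not overlap and was not called (log2 change 0.67, SE 0.19, edgeR adjusted p = 0.156).

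A wider list of other genes of the receptor pathway, of which 63 were tested, also held genes that rose and genes that fell between states. In fl/fl cells 1 rose and 4 fell (7.94% called, near the 6.34% of all genes), in fl/+ cells 6 rose and 17 fell (36.5%, beside 16.3% of all genes), and in +/+ cells 6 rose and 11 fell (27%, beside 16% of all genes). The kinase Prkcq (PKC theta) had 327 ± 15.1 CPM in +/+ effector cells and 485 ± 37.5 CPM in +/+ resting cells (SD, n = 3 each) and fell (log2 change -0.57, SE 0.10, edgeR adjusted p = 0.000479). In fl/fl cells it was not called (-0.29, adjusted p = 0.0871). The phosphatase Ptpn22, which acts on Lck and Zap70, rose in +/+ cells (324 ± 74.8 CPM in +/+ effector cells and 156 ± 29.9 CPM in +/+ resting cells; log2 change 1.05, SE 0.19, edgeR adjusted p = 0.000623). The phosphatase Ptprc (CD45) changed there by 0.00, and the costimulatory receptor Cd28 changed by 0.29 (adjusted p = 0.162).

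Between fl/fl and +/+ effector cells 6 of the 63 (9.52%) were called, 4 higher and 2 lower, where 2.81% of all genes were called (1.17% higher and 1.65% lower). Trat1, an adaptor that binds the TCR zeta chain, had 61.5 ± 8.90 CPM in fl/fl effector cells and 27.4 ± 5.13 CPM in +/+ effector cells (log2 change 1.16, SE 0.23, edgeR adjusted p = 0.00975). The Ras family activator Rasgrp2 had 80.9 ± 32.01 CPM in fl/fl effector cells and 35.7 ± 7.75 CPM in +/+ effector cells (log2 change 1.16, SE 0.27, edgeR adjusted p = 0.0297). Neither overlapped between the groups. Dgkd, a diacylglycerol kinase, rose by 0.64 (adjusted p = 0.045) and Pik3cd, a lipid kinase, by 0.33 (adjusted p = 0.0478). Nfatc1, a transcription factor switched on by calcium, had 221 ± 47.2 CPM in fl/fl effector cells and 381 ± 85.8 CPM in +/+ effector cells and fell (log2 change -0.78, SE 0.16, edgeR adjusted p = 0.0125), and the calcium channel Itpr2 changed by -0.66 (adjusted p = 0.0281). Against fl/+ effector cells 2 of the 63 (3.17%, beside 0.677% of all genes) were called, Trat1 (1.06, adjusted p = 0.0356) and Nfatc1 (-0.70, adjusted p = 0.0415). In resting fl/fl against +/+ cells 1 was called (1.59%, beside 0.696% of all genes), the calcium sensor Stim2 at 30.6 ± 2.88 CPM in fl/fl resting cells and 14.2 ± 4.74 CPM in +/+ resting cells (log2 change 1.07, SE 0.20, edgeR adjusted p = 0.0149). In the 3 tests of a difference in the change between states, 0 of the 63 were called, and edgeR was the one tool run on this list. At an unadjusted p under 0.05 there were 6 (9.52%, beside 8.97% of all genes) for fl/fl less +/+, 7 (11.1%, beside 5.89%) for fl/fl less fl/+ and 2 (3.17%, beside 3.23%) for fl/+ less +/+.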

How the data were processed

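RNA-seq values came from 18 libraries of sorted mouse Treg. Reads were processed with build mm10, STAR 2.6.0, RSEM 1.2.8 and bcl2fastq 2.17.1.14, per the submitters' processing notes. The sources used here do not give the annotation, strand setting or filters. The authors deposited RSEM expected counts and FPKM per gene symbol. Fractions made up 29.4% of the expected counts above 0, and all values were rounded before testing. The deposited FPKM served for levels per length and for 2 alternatives.

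In R 4.3.3 with edgeR 4.0.16, counts were scaled by TMM (factors 0.939 to 1.06), filtered with filterByExpr by group, and fitted with 6 group means over all 18 libraries. Contrasts were tested with the quasi-likelihood F test and adjusted by Benjamini-Hochberg over 10630 genes at 0.05. An interaction is the state change in one genotype less that in another. Library totals were 1658073 to 5756903 with 0.0215 common dispersion. The scripts were tested on simulated data. Alternatives were RLE scaling, no filter, DESeq2 1.42.0, limma 3.58.1 on log2(FPKM + 1) and log2(FPKM + 0.1), batch number as replicate block, contrast groups alone, and each library left out.

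Batch numbers are a label. In residuals, effector and resting libraries that share genotype and number (9 pairs) correlated at a mean of 0.207 (0.141 to 0.345, all above 0.1), and 12 of 36 pairs of one number and different genotypes exceeded 0.1. The main tests between states took all libraries as independent and did not use the pairs that share genotype and number. The replicate block took the batch number across genotypes, not these pairs.

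Named genes are the 39 members, their paralogs and partners within the list, and, of a wider pathway list, Prkcq, Ptprc, Cd28, Ptpn22 and any called between genotypes or in an interaction. The members, lists and tests were chosen with earlier results of these data known. Gene positions are from GENCODE M21 (GRCm38). The gene that the C1 allele stands for and some pathway and marker genes are not reported here and are left out of the list counts and sums.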

Additional observations from a re-analysis of the deposited data

How the results depend on the processing

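With no filter on low counts the number of the 39 genes called was 4 between states in fl/fl, 7 in fl/fl against +/+ effector, 4 in fl/fl against fl/+ effector, 1 in fl/+ against +/+ effector, 2 in fl/fl against +/+ resting, 2 in fl/+ against +/+ resting cells, and 5 and 2 in the differences fl/fl less +/+ and fl/fl less fl/+. With the contrast groups alone it was 1 between states in fl/fl, 0 in fl/fl against fl/+ effector and 0 in fl/fl against +/+ resting cells. Both FPKM scales gave 1 between states in fl/fl, and DESeq2 gave 4 in fl/fl against fl/+ effector cells. The replicate block gave 1 call in fl/+ against +/+ effector and 2 in fl/+ against +/+ resting cells. The block added 11 calls of single genes, all named above, and lost 0. Leaving out 1 library gave 1 to 3 calls between states in fl/fl, 9 to 17 in fl/+, 1 to 7 in fl/fl against +/+ effector, 0 to 4 in fl/fl against fl/+ effector and 0 to 2 in fl/fl against +/+ resting cells. The fl/fl state count was 1, with Pag1, without fl/fl effector replicate 1 or 3, any fl/fl resting library, fl/+ effector replicate 1 or 3, fl/+ resting replicate 2 or +/+ effector replicate 1 or 2. Of 38 called changes of single genes 20 were called in all 13 alternatives and none changed sign. Grap2 between states in +/+ was called in 3 of 13, and Rasgrp1 in 6 of 13 in both fl/+ and +/+. Between states in fl/+, Vav1 was called in 5 of 13, Lcp2 and Prkca in 6, Cblb in 8, Cd3g in 9 and Cd4 in 10. The cause was not tested. Numbers of all genes called under these settings are not given, so a gain or loss of calls cannot be read as particular to the 39 genes. Sos1 and Vav3, the genes of the list with the lowest FPKM, had the largest standard errors of the 39 in every contrast. Against +/+ effector cells the contrast groups alone lost Txk and Dgka, and both FPKM scales Prkca.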
